A study of Mus musculus with 4 samples.

Results

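The 10 genes described here encode inhibitors and transcription factors that cells make in answer to ERK signalling: the dual specificity phosphatases Dusp4, Dusp5 and Dusp6, the Sprouty genes Spry1, Spry2 and Spry4, the Sprouty-related genes Spred1 and Spred2, and the ETS factors Etv4 and Etv5. They were chosen by name, and all 10 were found among the 14382 genes of the table. The cells were mouse embryonic stem cells (ESCs) of genotype Arid1a f/f:CreERT2, in which floxed Arid1a alleles can be deleted by a Cre recombinase that 4-hydroxytamoxifen (4-OHT) switches on. One group was given ethanol and the other 1 µM 4-OHT for 24 hours before passage, with RNA taken at 72 hours. ARID1A is a DNA-binding subunit of BAF, a complex that remodels chromatin, and the design asks how transcripts differ after the deletion. Each group had 2 polyA RNA libraries, called A and B, from cells grown on irradiated fibroblast feeders in medium with LIF, serum and a serum replacement. Both groups carried the floxed alleles and CreERT2. Cells without CreERT2 that were given 4-OHT were not analysed here, so the effects of 4-OHT, of Cre activity and of the loss of Arid1a cannot be told apart. Whether the 2 libraries of a group came from different cultures is not stated, so a p-value here reflects only the spread among 4 libraries, part or all of which may be technical.

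In the RAS to ERK cascade, a receptor such as an FGF receptor passes its signal through RAS, RAF and MEK to the kinase ERK, which in mouse ESCs is driven mainly by FGF4 and favours exit from naive pluripotency. ERK then induces its own brakes. DUSP proteins remove the activating phosphates from ERK, Sprouty and SPRED proteins act upstream at the level of the receptor, RAS and RAF, and ETV4 and ETV5 carry the signal on as transcription factors. Because their transcripts follow ERK activity, these genes are often read together as a measure of it, and the question here was whether they moved together.

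They split. With 4-OHT, 3 members rose (Dusp6, Spry2 and Spry4) and 2 fell (Spry1 and Dusp4). The remaining members, Etv4, Etv5, Dusp5, Spred1 and Spred2, did not pass the threshold (limma on log2(CPM + 1), Benjamini-Hochberg adjusted p under 0.05 over 14373 genes, where CPM is the read count scaled to library size). The 5 called members of 10 stand beside 9.45% of all genes tested, with 3 rises beside 5.25% and 2 falls beside 4.20%. Among the 8475 genes whose mean level lay within the range of the members, 13.2 to 291 CPM, the share called was 10.5%. The median log2 fold change of the 10 members was 0.17, beside -0.0015 for all genes tested, and the median size of a change without its sign was 0.41 beside 0.14. In edgeR's quasi-likelihood test on the reads, which called 15.8% of the genes it tested (8.13% higher and 7.64% lower), Dusp5 and Etv5 were called higher too, giving 5 rises and 2 falls. Leaving out 4-OHT library A, or 4-OHT library B, left 0 calls in limma for the members and for all genes (5 and 7 members at an unadjusted p under 0.05). The edgeR test still called Dusp6, Spry2 and Spry4 higher and Dusp4 and Spry1 lower after either loss.

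**Figure D1:**
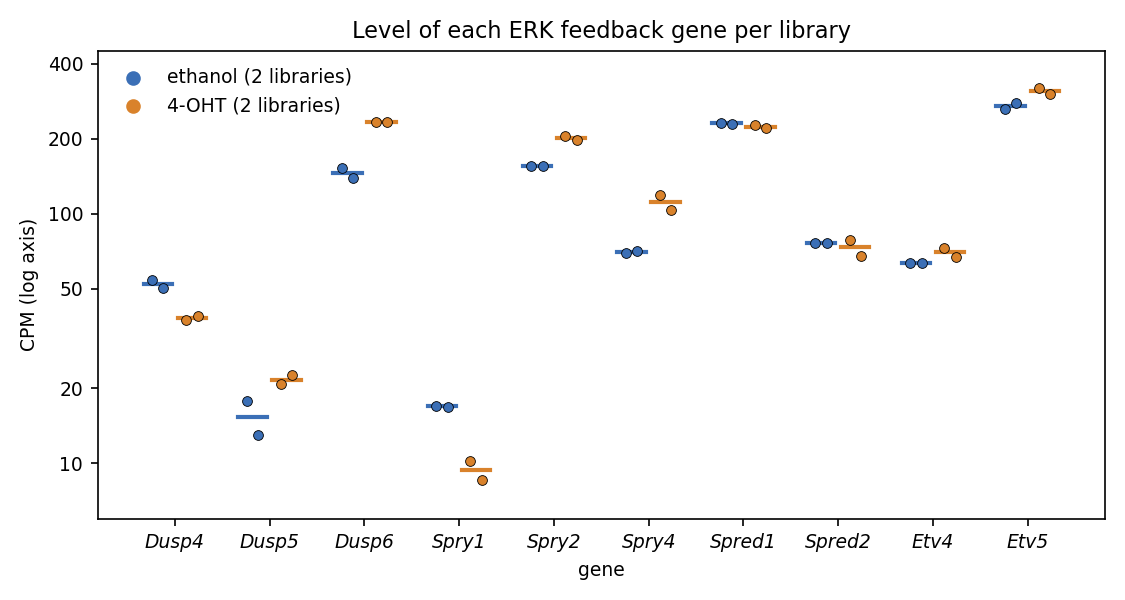
CPM (vertical, log axis) of the 10 ERK feedback genes (horizontal) with ethanol libraries in blue and 4-OHT libraries in orange; each point is 1 library and each bar a group mean. Dusp6 lay at 139 to 153 CPM in ethanol and at 232 to 234 CPM with 4-OHT, while Spry1 lay at 16.8 to 17.0 and at 8.58 to 10.2 CPM.

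The sequence before the transcription start of 4 members is shown because these genes took different paths: Dusp6 and Spry2 rose, Spry1 fell, and Dusp5 differed between tests. RefSeq windows of GRCm38.p6 from 250 bases before to 50 after the start were matched for 7 of the 10 members, and the part upstream of the start in both RefSeq and Gencode is printed 5′ to 3′. Capitals mark GGAA, the core that ETS factors bind, on either strand, the longer ETS form AGGAAGT on either strand, which holds that core, and the CArG box, the site of serum response factor.
Dusp6 (chr10:99262981-99263230, plus strand): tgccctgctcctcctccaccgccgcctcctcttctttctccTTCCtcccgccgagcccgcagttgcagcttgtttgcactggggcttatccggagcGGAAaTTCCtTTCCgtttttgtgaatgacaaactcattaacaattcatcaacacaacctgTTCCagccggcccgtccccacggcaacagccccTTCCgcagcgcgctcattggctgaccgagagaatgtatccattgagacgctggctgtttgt
Spry2 (chr14:105896820-105897069, minus strand): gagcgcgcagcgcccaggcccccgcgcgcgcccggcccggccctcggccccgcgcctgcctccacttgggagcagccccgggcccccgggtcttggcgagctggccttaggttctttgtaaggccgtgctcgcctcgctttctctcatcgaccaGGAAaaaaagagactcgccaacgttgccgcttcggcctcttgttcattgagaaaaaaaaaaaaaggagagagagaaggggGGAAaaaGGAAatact
Spry1 (chr3:37639697-37639946, plus strand): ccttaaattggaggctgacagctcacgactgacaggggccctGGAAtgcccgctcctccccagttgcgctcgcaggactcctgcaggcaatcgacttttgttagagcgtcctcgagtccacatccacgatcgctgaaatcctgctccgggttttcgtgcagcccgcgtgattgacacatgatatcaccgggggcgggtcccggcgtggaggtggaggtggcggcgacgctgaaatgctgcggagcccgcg
Dusp5 (chr19:53528895-53529108, plus strand): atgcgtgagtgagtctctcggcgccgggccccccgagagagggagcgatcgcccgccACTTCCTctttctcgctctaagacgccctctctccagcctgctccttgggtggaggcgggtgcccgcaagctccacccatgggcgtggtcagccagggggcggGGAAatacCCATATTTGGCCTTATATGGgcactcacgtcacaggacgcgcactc
Over the whole window of 300 bases, GGAA on either strand was found 6 times at Dusp6, 5 times at Spry2, 3 times at Dusp5 and 1 time at Spry1. At Spred2 and Spred1, which did not pass, GGAA was found 7 and 5 times. The 2 windows of Etv5 held it 0 and 6 times. Whether the counts go with the direction of change was not tested, and Spry1 was the only member with a window that fell. Of all 32851 windows of that length, 96.0% held it at least 1 time, with a median of 3. The Dusp5 window held 2 CArG boxes, which started 82 and 72 bases before the RefSeq start, and 1.63% of all windows held 1 or more. AGGAAGT was found at Dusp5, Spred2 and 1 of the 2 windows of Etv5, and in 9.35% of all windows. CGGAAGT (6.42% of all windows), TGANTCA of AP-1 (7.81%) and the E-box CACGTG (7.15%), each on both strands, were found in none of the members' windows. GGAA and the CArG box were added to the search after the windows had been seen. These are matches of letters in 1 short window and say nothing of binding.

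Arid1a itself stood at 517 and 502 CPM in ethanol and at 241 and 213 CPM with 4-OHT, a log2 fold change of -1.16 (SE 0.066, limma adjusted p = 7.33e-06). Reads of the whole gene were counted, so what was left with 4-OHT includes any transcript that no longer holds the floxed part and any from cells that kept the gene. The recovered reads of a library came to between 6171778 and 7012347, and a member had between 54 and 2252 reads in a library. Counts of markers below stand beside 5.25% of all genes tested that rose and 4.20% that fell in limma. Of 8 stem cell genes 2 rose (Nanog and Tdgf1) and 2 fell (Esrrb and Sox2). Pou5f1 stood at 1363 to 1514 CPM in the 4 libraries and did not pass, Nanog rose from 309 and 318 to 403 and 402 CPM, and Sox2 fell from 349 and 327 to 292 and 289 CPM. Without ethanol library A limma called 1 of the 8 higher and 1 lower, and without ethanol library B it called 2 higher and 0 lower. Of 16 fibroblast markers 10 were measured, with a summed level of 164 to 173 CPM in ethanol and 188 to 192 CPM with 4-OHT. Col1a2 and Thy1 rose and Col5a2 fell (1 rise without ethanol library A or B), and none of the 10 was at 0 in every library. Of 10 primitive endoderm markers 9 were measured, at a sum of 281 to 302 and 203 to 204 CPM, and Col4a1, Col4a2 and Lama1 fell. The median log2 fold change of these 9 was 0.19, beside -0.0015 for all genes tested. The defining factors Gata4, Gata6 and Sox17 were at 0.465 to 4.34 CPM with positive values (0.19, 0.28 and 0.61) that did not pass. Pdgfra (0.23) and Sox7 (0.89) had positive values too and did not pass in limma, and edgeR called Sox7 higher (edgeR adjusted p = 0.01997). Dab2 had a negative value (-0.14) that did not pass, at 18.1 and 20.4 CPM in ethanol and 18.2 and 16.5 CPM with 4-OHT. Of 7 trophoblast markers measured Cdx2 rose and Krt8 fell, and of 6 neural markers 5 rose and Nes fell. The neural rises numbered 3 in limma without ethanol library A or ethanol library B, with a minimum mean log2 CPM of 1 and in DESeq2. In bulk RNA, fewer cells of a type and less RNA per cell cannot be told apart, and the part of these cells in the results below was not tested. The labels name a stranded and an unstranded library kit without saying which library had which, so a difference in kit cannot be told apart from the treatment either.

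Dusp6 (mm10 chromosome 10, 99263231 to 99267489, plus strand) encodes a cytoplasmic phosphatase that is selective for ERK. It was measured at 153 and 139 CPM in ethanol and at 232 and 234 CPM with 4-OHT. Both 4-OHT libraries lay above both ethanol libraries, and Dusp6 rose 1.60-fold (means 146 ± 10.0 and 233 ± 0.988 CPM, SD, n = 2 per group). Its log2 fold change of 0.68 (SE 0.064, limma adjusted p = 0.0002) was the largest rise among the 10 members with all libraries, but Spry4 lay above it without ethanol library B (0.66 against 0.61) or 4-OHT library B (0.75 against 0.67).

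Dusp4 (chromosome 8, 34807297 to 34819894, plus strand) encodes a nuclear phosphatase that acts on ERK and on other MAP kinases. It went the other way, from 54.6 and 50.5 CPM in ethanol to 37.4 and 38.9 CPM with 4-OHT. The groups did not overlap, and Dusp4 fell by 0.45 on the log2 scale (SE 0.086, limma adjusted p = 0.00873), from a mean of 52.6 ± 2.84 to 38.2 ± 1.10 CPM. The mean changed by -27.4%.

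Dusp5 (chromosome 19, 53529109 to 53542431, plus strand) encodes a nuclear phosphatase that is specific for ERK and anchors it there. Its 2 ethanol libraries lay apart, at 17.8 and 12.9 CPM (115 and 83 reads), and its 4-OHT libraries were at 20.8 and 22.6 CPM (146 and 142 reads). Both 4-OHT values were above both ethanol values, yet the log2 fold change of 0.48 (95% interval 0.13 to 0.83) did not pass in limma (adjusted p = 0.0892). The edgeR test called it higher (edgeR adjusted p = 0.0111), a call that was lost in edgeR without ethanol library B or 4-OHT library B. Without ethanol library A the limma value was 0.70 and passed (adjusted p = 0.0128), and without ethanol library B it was 0.27 and did not (adjusted p = 0.404). An antisense transcript on the opposite strand overlaps 22.1% of the exon length of Dusp5, and the strand setting of the read counting is unknown here. Reads of the antisense transcript can therefore be part of its level.

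Spry2 (chromosome 14, 105891947 to 105896819, minus strand) encodes the best known Sprouty inhibitor of receptor tyrosine kinase signalling. It was at 155 and 156 CPM in ethanol and at 206 and 197 CPM with 4-OHT. The ethanol libraries were nearly equal and both 4-OHT libraries lay above them, so that Spry2 rose 1.30-fold (log2 fold change 0.37, SE 0.057, limma adjusted p = 0.00291).

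Spry4 (chromosome 18, 38586247 to 38601415, minus strand), which encodes a further inhibitor of the path from receptor to RAF, was at 69.9 and 71.1 CPM in ethanol and at 119 and 104 CPM with 4-OHT. It rose 1.58-fold, with a log2 fold change of 0.65 (SE 0.079, limma adjusted p = 0.000742). The 4-OHT libraries differed by more than the ethanol libraries (SD 10.9 against 0.871 CPM), and neither 4-OHT library came near the ethanol values.

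Spry1 (chromosome 3, 37639947 to 37644598, plus strand), whose product is known for limiting growth factor signals in kidney development, was the Sprouty gene that fell. It had 110 and 108 reads in ethanol (17.0 and 16.8 CPM) and 72 and 54 reads with 4-OHT (10.2 and 8.58 CPM). The mean CPM was 1.80 times lower with 4-OHT, and the log2 fold change of -0.79 (SE 0.15, limma adjusted p = 0.00848) was the largest change in size among the 10 members with all libraries. Without 4-OHT library B it was -0.68, smaller in size than the 0.75 of Spry4. Spry1 was also the member with the fewest reads, and an antisense gene overlaps 24.4% of its exon length, with the same limit as for Dusp5.

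Spred1 (chromosome 2, 117121374 to 117182279, plus strand) encodes a membrane protein that brings the RAS inactivator neurofibromin to RAS. Its values were 231 and 229 CPM in ethanol and 226 and 221 CPM with 4-OHT, a log2 fold change of -0.04 with a 95% interval from -0.16 to 0.08 (limma adjusted p = 0.709). Spred2 (chromosome 11, 19924375 to 20024026, plus strand), its relative, was at 76.6 and 76.3 CPM in ethanol and at 78.7 and 68.0 CPM with 4-OHT. The Spred2 groups overlapped, the only ones among the 10 members to do so, and the log2 fold change was -0.06 (95% interval -0.24 to 0.12, limma adjusted p = 0.714). For all genes tested, groups did not overlap in 52.1%, so the 9 of 10 members with separate groups include Spred1 and Etv4, whose differences were small.

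Etv5 (chromosome 16, 22381309 to 22439719, minus strand) and Etv4 (chromosome 11, 101769742 to 101785371, minus strand) encode ETS factors of the PEA3 group, which act downstream of FGF signals in many tissues. Etv5 was at 264 and 278 CPM in ethanol and at 320 and 302 CPM with 4-OHT. That log2 fold change of 0.20 (95% interval 0.07 to 0.33) missed the limma threshold (adjusted p = 0.0614) and was called higher in edgeR (edgeR adjusted p = 0.0165). In edgeR the Etv5 call was lost when either ethanol library or 4-OHT library A was left out. Etv4 was at 63.4 and 63.5 CPM in ethanol and at 73.2 and 67.4 CPM with 4-OHT, with a log2 fold change of 0.14 (95% interval -0.02 to 0.31, limma adjusted p = 0.279, edgeR adjusted p = 0.261). Both Etv genes thus lay higher in both 4-OHT libraries, by less than Dusp6 or Spry4.

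**Figure D2:**
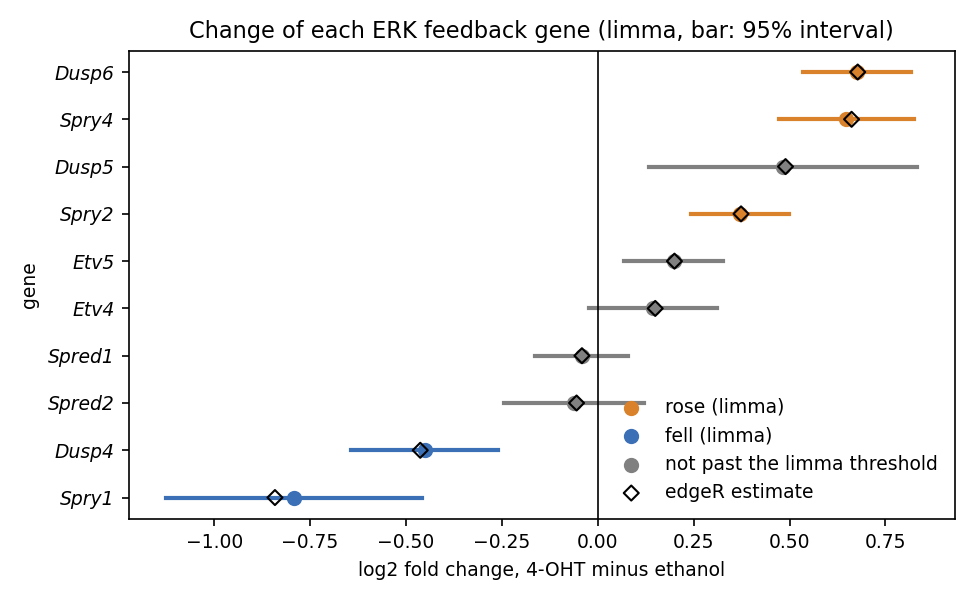
Log2 fold change (4-OHT minus ethanol, horizontal) of the 10 ERK feedback genes (vertical), with the limma estimate on CPM + 1 as a filled point, its 95% interval as a bar and the edgeR estimate on the reads as an open diamond. Intervals of Dusp6, Spry4, Spry2, Dusp5 and Etv5 lie above 0 and those of Dusp4 and Spry1 below, from 0.83 at the upper end for Dusp5 to -1.12 at the lower end for Spry1; the intervals are not adjusted over genes, and Dusp5 and Etv5 did not pass in limma.

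The split ran within families, so ratios of relatives were taken within each library, where the scaling of the library cancels but for the pseudocount. The ratio of Spry2 to Spry1 in CPM was 9.12 and 9.23 in the ethanol libraries and 20.1 and 23.0 in the 4-OHT libraries. That of Spry4 to Spry1 went from 4.10 and 4.22 to 11.6 and 12.1. That of Dusp6 to Dusp4 went from 2.80 and 2.74 to 6.21 and 6.0. These are shifts of 1.16, 1.44 and 1.13 in the log2 ratio of CPM + 1, and in each the libraries of a group lay close together and far from the other group. By contrast the ratio of Dusp6 to Dusp5 shifted by 0.19 with overlapping groups, that of Spred1 to Spred2 by 0.02 with overlapping groups, and that of Etv5 to Etv4 by 0.05 (4.17 and 4.37 against 4.37 and 4.48). In the exact permutation test, two-sided, 2 libraries against 2 cannot give a p below 0.333. The ratios of Spry2 to Spry1, Spry4 to Spry1, Dusp6 to Dusp4 and Etv5 to Etv4 reached that value (exact permutation adjusted p = 0.5 over the 6 pairs), which does not pass. The pairs with the large shifts each set a gene called higher against one called lower, so these shifts restate those calls and add no separate evidence. The unequal change rests on the opposite calls of the single genes.

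**Figure D3:**
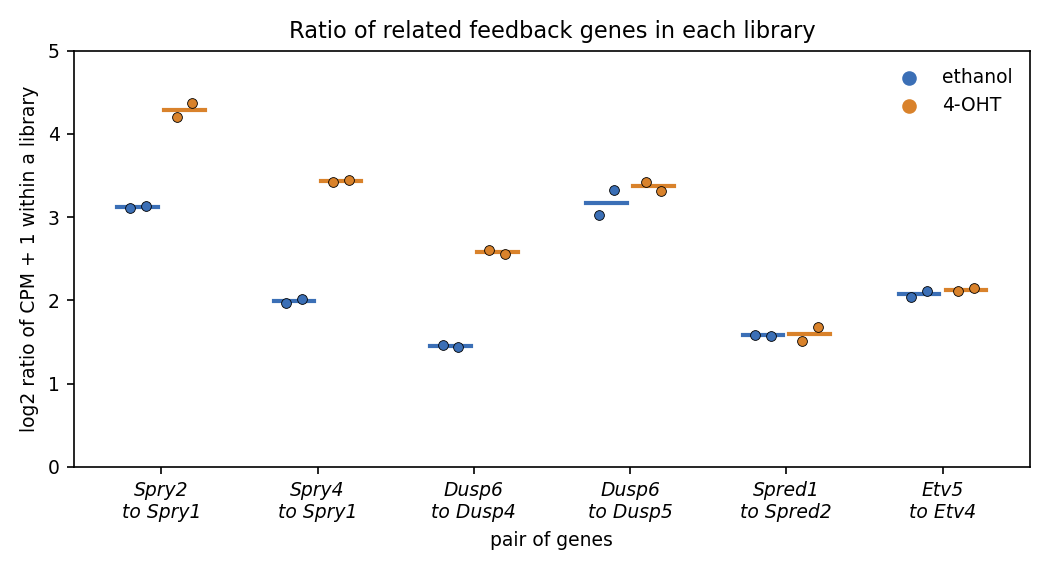
Log2 ratio of CPM + 1 of related genes within a library (vertical) for 6 pairs (horizontal), blue for ethanol and orange for 4-OHT; each point is 1 library and each bar a group mean. The means of Spry2 to Spry1 are 3.12 in ethanol and 4.29 with 4-OHT, whereas those of Spred1 to Spred2 are 1.58 and 1.60.

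Levels were compared between members per kb of annotated exon. In ethanol Spry2 was highest (74.5 ± 0.0237 CPM per kb), followed by Etv5 (66.0 ± 2.31), Dusp6 (46.5 ± 3.19), Spred1 (33.9 ± 0.218), Etv4 (20.4 ± 0.0223), Dusp4 (19.2 ± 1.04), Spred2 (16.5 ± 0.0436), Spry4 (14.8 ± 0.183), Dusp5 (6.22 ± 1.39) and Spry1 (5.83 ± 0.0491), each as CPM per kb (SD, n = 2). Dusp5 and Spry1 overlapped there and no other neighbours did. With 4-OHT, Dusp6 reached 74.4 ± 0.315 CPM per kb and overlapped with Etv5 (75.8 ± 3.15), and Spry4 moved from rank 8 to rank 5 with 23.4 ± 2.30 CPM per kb, overlapping with Etv4 (22.6 ± 1.32). Dusp4, at 13.9 ± 0.402 CPM per kb, moved from rank 6 to rank 8, and Spry1 stayed last at 3.24 ± 0.402 CPM per kb. The members that fell were thus low or middling in level: Spry1 made up 6.13% of the summed Sprouty level per kb in ethanol and 2.63% with 4-OHT, and Dusp4 made up 26.7% and 14.3% of the summed level of the 3 Dusp genes. The summed Dusp level was 1.35 times and the summed Sprouty level 1.29 times that in ethanol, beside 1.14 for the Etv genes and 0.968 for the Spred genes. The annotated exon length covers all transcripts of a gene and may exceed the form these cells make.

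Upstream of the feedback genes, several FGF ligand genes were higher with 4-OHT. Of 15 measured genes for FGF ligands, receptors and binding proteins, 7 rose and 1 fell, beside 5.25% and 4.20% of all genes tested. Their median log2 fold change was 0.49, beside -0.0015 for all genes. Fgf15 rose from 9.61 and 8.58 to 48.5 and 49.1 CPM, Fgf5 from 3.56 and 2.34 to 18.6 and 15.3 CPM, and Fgf17 and Fgf8 rose as well. Fgf4, the ligand that ESCs are known to make for themselves, rose from 45.1 and 47.6 to 76.2 and 76.1 CPM (limma adjusted p = 0.000391). The receptor gene Fgfr2 fell from 51.1 and 47.9 to 31.7 and 30.0 CPM, while the receptor gene Fgfr1 was at 321 and 306 against 343 and 333 CPM and did not pass (limma adjusted p = 0.265). Fgf3 was higher in edgeR alone (edgeR adjusted p = 0.0483).

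Within the cascade itself 23 of 27 genes did not pass, 3 rose and 1 fell, where 9.45% of all genes tested were called. The median log2 fold change of the cascade was -0.03, beside -0.0015 for all genes. Mapk3, the gene of ERK1, fell from 129 and 120 to 92.1 and 98.5 CPM (log2 fold change -0.38, limma adjusted p = 0.00623). Among the genes that rose, Shc1, an adaptor gene, went from 157 and 155 to 197 and 220 CPM, and Rps6ka1, which encodes a kinase that ERK activates, from 155 and 143 to 183 and 171 CPM. Rps6ka1 lay near the threshold (limma adjusted p = 0.0439), and the rises numbered 2 with a pseudocount of 0.1 and in DESeq2. The edgeR test also called Braf higher (edgeR adjusted p = 0.0221), and without 4-OHT library A it called 2 genes of the cascade lower.

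Relatives of the members also went both ways. Among all genes tested, limma called 5.25% higher and 4.20% lower, and edgeR 8.13% and 7.64%. Of 9 other Dusp genes 0 rose and 2 fell in limma and in edgeR. The falls numbered 1 without ethanol library A in both tests, with a pseudocount of 0.1 and in DESeq2. Dusp9, another cytoplasmic ERK phosphatase, went from 159 and 151 to 107 and 119 CPM (log2 fold change -0.46, limma adjusted p = 0.00272). Dusp14 fell from 21.1 and 15.6 to 12.2 and 10.3 CPM. Of 12 other feedback inhibitors and relatives 3 rose and 3 fell, and the falls numbered 1 without ethanol library A in limma and in edgeR, and in DESeq2. Spred3 rose from 12.2 and 12.0 to 23.2 and 24.2 CPM, while Spred1 and Spred2 did not pass (the difference between them was not tested), and Il17rd, which encodes the FGF antagonist SEF, rose from 275 and 277 to 381 and 392 CPM. Errfi1, an inhibitor of EGF receptors, rose from 40.6 and 43.8 to 57.0 and 57.9 CPM. Etv1, the third gene of the PEA3 group, fell from 17.5 and 15.4 to 8.81 and 6.68 CPM (log2 fold change -1.01, limma adjusted p = 0.00477), while Etv4 and Etv5 had positive values and did not pass in limma. Flrt3 and Lrig1 were the other falls.

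Of 15 measured transcriptional targets of ERK outside these families, 2 rose, 2 fell and 11 did not pass, with a median log2 fold change of -0.06. These counts and those below stand beside 5.25% of all genes tested that rose and 4.20% that fell, with a median of -0.0015. Myc rose from 54.2 and 56.3 to 112 and 108 CPM and Ccnd1, a cyclin gene, from 418 and 404 to 555 and 544 CPM. Epha2 fell from 702 and 655 to 523 and 497 CPM and Junb from 63.1 and 55.8 to 41.2 and 44.0 CPM. The immediate early gene Egr1 was at 28.7 and 27.0 against 24.4 and 19.1 CPM and did not pass in either test (limma adjusted p = 0.137, edgeR adjusted p = 0.05002), and Fos was at 4.80 and 2.65 against 5.12 and 4.93 CPM. Of 9 ETS factor genes whose products ERK acts on, 0 passed in limma (1 at an unadjusted p under 0.05), and edgeR called Elk3 lower, from 13.6 and 15.0 to 10.2 and 8.74 CPM. In a published score of 10 transcripts for MAPK pathway activity, which shares 6 members with the genes above, 4 rose (Dusp6, Spry4, Spry2 and Ccnd1), 2 fell (Dusp4 and Epha2) and 4 did not pass.

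**Figure D4:**
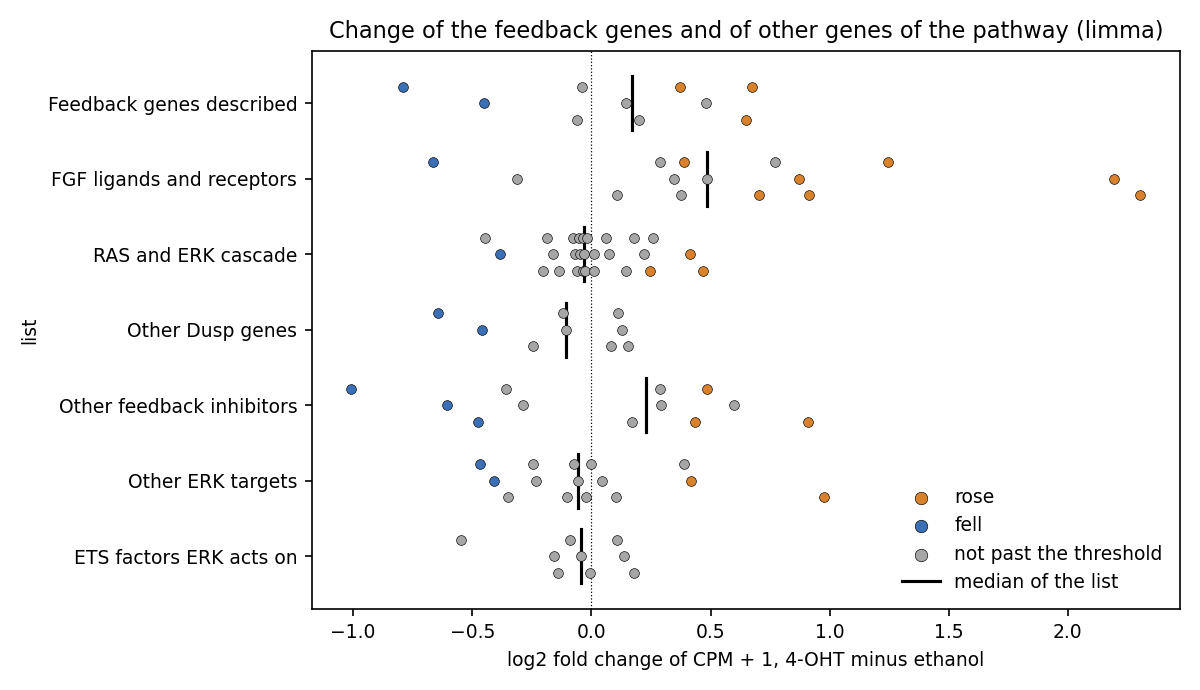
Change on the log2(CPM + 1) scale, 4-OHT minus ethanol (horizontal), of the 10 feedback genes and of 6 lists of other pathway genes (vertical), each point a gene, orange where it rose, blue where it fell and grey where it did not pass; black bars are medians. The FGF list has its median at 0.49, which is the value of Klb, a gene of few reads that did not pass. The cascade list, with 23 of 27 genes grey, has its median at -0.03.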

How the data were processed

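The deposited table held, for 14382 genes, the authors' mean CPM of each group, per the file headers. The library sizes behind these CPM are not stated and were inferred from the values, as below. The submitters' processing notes name HISAT2, Trimmomatic, FastQC, edgeR and the build mm10. The read counter and the strand setting are not given in the sources used. The deposited fold changes and p-values were not used, since the adjusted p fell in 0 of 14381 steps in text order of the Entrez number and is thus out of register with the genes.

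Each deposited value is the mean of 2 CPM values, each a whole read number times what a read is worth in its library (0.142 to 0.159 CPM). Whole reads fitted the printed digits of all values (100%; 0.0333% and 0.1% of 3000 values moved at random did so), with 1 possible pair for 99.7% and 99.9% of genes in ethanol and 4-OHT. Where several pairs were possible, libraries within 2-fold were asked for, and 9 genes were left out. The columns carry no replicate numbers, so libraries are called A and B.

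The 10 genes and all lists were chosen with earlier results of these data known. Groups were compared on log2(CPM + 1) with the limma trend method (limma 3.58.1, R 4.3.3) over 14373 genes, as 4-OHT minus ethanol. The test was two-sided, p-values were adjusted by Benjamini-Hochberg, and no low values were removed. Log2 fold changes from limma are on that scale, which understates changes of low genes. Those of edgeR are on the reads, and folds without a log and percent changes are ratios of mean CPM. As alternatives, the recovered reads were fitted in edgeR 4.0.16 (quasi-likelihood, with filterByExpr, which kept all 10 genes) and DESeq2 1.42.0. Other settings were a pseudocount of 0.1, DESeq2 size factors, TMM, a minimum mean log2 CPM of 1 and leaving out each library. From each list, called genes with the largest changes were named, up to 4 in each direction. Fgfr1, Klb, Egr1, Fos, Fgf3, Braf and Elk3 and the marker genes were named after their values were seen. Positions and exon lengths are from Gencode M21, promoter sequences from RefSeq (GRCm38.p6). The sequences of Dusp4, Spry4 and Etv4 are not shown here, and some genes of the lists are not reported here by name.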

Additional observations from a re-analysis of the deposited data

How the results depend on the processing

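Under a pseudocount of 0.1, DESeq2 size factors and DESeq2 itself, all 10 members kept their direction and their side of the threshold. In DESeq2 the falls of Dusp4 and Spry1 lay near the threshold (DESeq2 adjusted p = 0.0472 and 0.0427). The rises of Dusp6, Spry4 and Spry2 lay further from it (DESeq2 adjusted p = 2.52e-12, 1.87e-06 and 0.000691). The members called higher were 5 with a minimum mean log2 CPM of 1, with edgeR and with edgeR after TMM, as Dusp5 and Etv5 were added; with that minimum fewer genes were tested. Leaving out each library, over limma and edgeR, gave 0 to 6 members called, 0 to 4 higher and 0 to 2 lower. All genes called then numbered 0 to 1781, 0 to 953 higher and 0 to 828 lower, the 0 coming from limma without a 4-OHT library (lowest adjusted p 0.129 and 0.12, with 2504 and 2517 genes at an unadjusted p under 0.05; edgeR called 1586 and 1781 there). Where a group had 1 library left, it was assumed to vary like the other group. Among all genes, 958 were called lower with the minimum level. With edgeR 2043 were called (990 lower), with TMM 2074 (1000 lower), and with DESeq2 700 (382 higher and 318 lower). The cause was not tested. The log2 fold change of Spred2, which did not pass, ran from -0.17 to 0.04 over the fits with a library left out (0.0425 in limma and 0.0431 in edgeR without 4-OHT library B). The shift in the ratio of Spred1 to Spred2 ran from -0.067 to 0.11, and that of Spry4 to Spry1 was 1.503 with a pseudocount of 0.1. No paired analysis was possible because the columns carry no replicate numbers. Depth limits Spry1 and Dusp5 most, with 54 to 146 reads in a library.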
